A study of Mus musculus with 2 samples.

Results

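The genes described here are 43 genes of the NRF2 pathway, of glutathione metabolism and of the antioxidant enzymes, and 39 of them were measured on the arrays. The remaining 4 genes (Prdx1, Prdx5, Prdx6 and G6pdx) had no probe set annotated to them alone and were not analysed here. Members were taken from a fixed list of gene symbols, and each gene was read from its brightest probe set, a set of short probes against 1 transcript. RNA came from young mouse embryonic fibroblasts (MEFs) of strain C57BL/6, isolated from whole embryos at day 13.5 and used at passage 2. Cells were transfected with GapmeR AK156230, a locked nucleic acid oligonucleotide that directs RNase H to the lncRNA AK156230, or with GapmeR Control, a non-targeting oligonucleotide, so that cells of both conditions carried a transfected GapmeR. Each condition was hybridized to 1 array, so no test was run, no difference has a replicate check, and genes are called higher or lower by 2-fold or by 1.5-fold only as a description.

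Values are MAS5 signals on a linear scale as the authors deposited them, and log2 ratios are of GapmeR AK156230 over GapmeR Control. The median signal of all 45037 probe sets was 50.95 with GapmeR AK156230 and 54.8 with GapmeR Control. The annotation listed AK156230 for none of the probe sets, and the knockdown itself could not be read here. All 15 fibroblast markers examined reached the median on at least 1 array. Fap did so with GapmeR Control only (39.4 with GapmeR AK156230 and 203.9 with GapmeR Control). The summed signal of the 15 markers was 31293 with GapmeR AK156230 and 44658 with GapmeR Control. Of the 15 markers, 6 were lower by 2-fold or more. The share was 3.85% over all named genes and 4.92% over those at or above the median signal. Among the 6 lower markers was Prrx1 (log2 ratio -2.56), whose 6 probe sets had log2 ratios from -2.56 to 0.22. Among markers of other cells, Cd68, Cd14, Kdr and Krt18 were higher by 2-fold or more (2.54-, 2.37-, 2.04- and 2.35-fold). Such markers were not all dim, and 7 of 9 macrophage and leukocyte markers reached the median on at least 1 array, among them Lyz2, with 527 with GapmeR AK156230 and 725 with GapmeR Control, and Csf1r, with 142 with GapmeR AK156230 and 174 with GapmeR Control. Ptprc, the pan-leukocyte gene, was under the medians, with 25.85 with GapmeR AK156230 and 30.89 with GapmeR Control. Of the hepatocyte markers 2 of 6 reached the median, the brightest being Apoa1, with 164 with GapmeR AK156230 and 228 with GapmeR Control, and Alb had 16.48 with GapmeR AK156230 and 21.19 with GapmeR Control. Of the erythroid markers 1 of 5 reached it. The summed signal of the 9 macrophage and leukocyte markers was 1503 with GapmeR AK156230 and 1527 with GapmeR Control. Of these 9 markers, 7 had log2 ratios below 0. The summed signal of the 5 erythroid markers was 137 with GapmeR AK156230 and 169 with GapmeR Control. In the same order, the sums were 346 and 430 for the 6 hepatocyte markers and 217 and 172 for the 5 endothelial markers. For the 6 epithelial markers they were 583 and 458. The higher endothelial and epithelial sums rested on Kdr (90.9 and 44.5) and Krt18 (298.6 and 126.9). Of the 6 epithelial markers, 4 had log2 ratios above 0 and 2 below 0, Epcam (-0.52) and Krt14 (-0.39). No marker of any list was at 0. The part of a changed cell makeup in the values below was not tested, and fewer cells of a type and less RNA per cell cannot be told apart in such samples.

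NRF2, the product of Nfe2l2, is a transcription factor that is held in the cytoplasm and marked for degradation by KEAP1. Oxidants and electrophiles release it, and together with a small MAF protein it binds the antioxidant response element of genes for quinone reduction, glutathione synthesis and conjugation, thioredoxin recycling and NADPH supply. Glutathione is made by glutamate-cysteine ligase and glutathione synthetase, attached to electrophiles by glutathione transferases, used by glutathione peroxidases to reduce peroxides, and recycled by glutathione reductase with NADPH from the pentose phosphate pathway. In fibroblasts these enzymes limit oxidative damage, which is among the triggers of senescence.

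The core of the antioxidant response element, searched as TGACNNNGC on both strands, was read in the promoter windows of RefSeq (GRCm38.p6), which run from 250 bases before to 50 bases after an annotated start. These letters overlap the AP-1 site TGACTCA where the N positions read TCA. Of the 33 measured genes with a window, 9 held a match (27.3%), against 14.0% of all 27025 genes with a window. The stretches around the matches are shown because they carry the letters through which NRF2 is known to bind; each runs 5′ to 3′ on the strand of the gene, with the match in capitals, and reads GCNNNGTCA where the match lies on the opposite strand.
Gclm (chr3:122245413-122245441, + strand): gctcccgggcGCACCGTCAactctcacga
Gsta3 (chr1:21240454-21240482, + strand): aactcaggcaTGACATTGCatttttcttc
Gstm5 (chr3:107895802-107895830, + strand): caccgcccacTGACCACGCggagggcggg
Mgst1 (chr6:138140461-138140489, + strand): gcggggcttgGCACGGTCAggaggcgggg
Nfe2l2 (chr2:75704885-75704913, - strand): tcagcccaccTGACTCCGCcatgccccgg
Pgd (chr4:149166061-149166089, - strand): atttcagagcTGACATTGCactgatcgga
Sod1 (chr16:90220696-90220724, + strand): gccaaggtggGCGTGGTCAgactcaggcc
Srxn1 (chr2:152105542-152105570, + strand): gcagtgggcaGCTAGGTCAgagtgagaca
Txnrd1 (chr10:82859104-82859132, + strand): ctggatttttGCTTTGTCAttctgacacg
A gene with several annotated starts has several windows, and per window the shares were 9 of 42 for the measured genes (21.4%) and 12.4% for all windows. The matches of Txnrd1, Pgd, Gclm and Gsta3 belong to starts that lie 25255, 623, 70 and 20 bases inside the annotated genes. Counted from the start of the window that holds it, the match began 4 bases downstream for Pgd and 29 bases downstream for Srxn1, and upstream for the other genes, nearest for Gstm5 at 42 bases. The log2 ratios of these 9 genes had a median of -0.34, and 3 of them (Gsta3, Mgst1 and Srxn1) were lower by 1.5-fold or more. Among the 24 genes whose windows held no match the median log2 ratio was -0.23 and 5 genes were lower by 1.5-fold or more. A match is a run of letters and was not read as a binding site. Bases outside the windows were not searched, so the lack of a match does not show that a gene lacks the element.

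Over the 39 measured genes, 5 were lower and 1 was higher by 2-fold or more with GapmeR AK156230. The 5 lower genes were Nqo1, Gstm1, Gsta3, Gsta4 and Sod3, and the higher gene was Gpx3. They made up 12.8% and 2.56% of the genes, while 3.85% of all 18193 named genes on the array were lower and 1.59% were higher by 2-fold or more (5.44% in either direction). At 1.5-fold, 11 genes (28.2%) were lower and 2 (5.13%) were higher, against 9.69% and 5.48% of all named genes (15.2% in either direction). The shares of higher genes were thus near the background, and those of lower genes were above it. The list was chosen with earlier results of these data known, so these shares describe it and are not a test. The median log2 ratio of the 39 genes was -0.29, and that of all named genes was -0.07. Signals of 38 of the 39 genes reached the median on at least 1 array, 1 of them (Gstt1) with GapmeR Control only. Among all genes at or above the median, 4.92% of 12319 named genes were lower and 1.9% were higher by 2-fold or more. Most members were short genes, with a median length of 10.5 kb, against 20.2 kb for all named genes. Of 36 members under 40 kb in length, 5 (13.9%) were lower and 1 was higher by 2-fold or more, whereas of 12624 named genes of that length 2.01% were lower and 1.78% higher. At 1.5-fold, 10 of these members (27.8%) were lower and 2 higher, against 6.55% and 6.12% of the named genes under 40 kb. Scaling the arrays to the same median added 0.11 to every log2 ratio, and the share of lower genes among all genes past 2-fold was then 60.0%, against 70.8% for the signals as deposited.

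**Figure D1:**
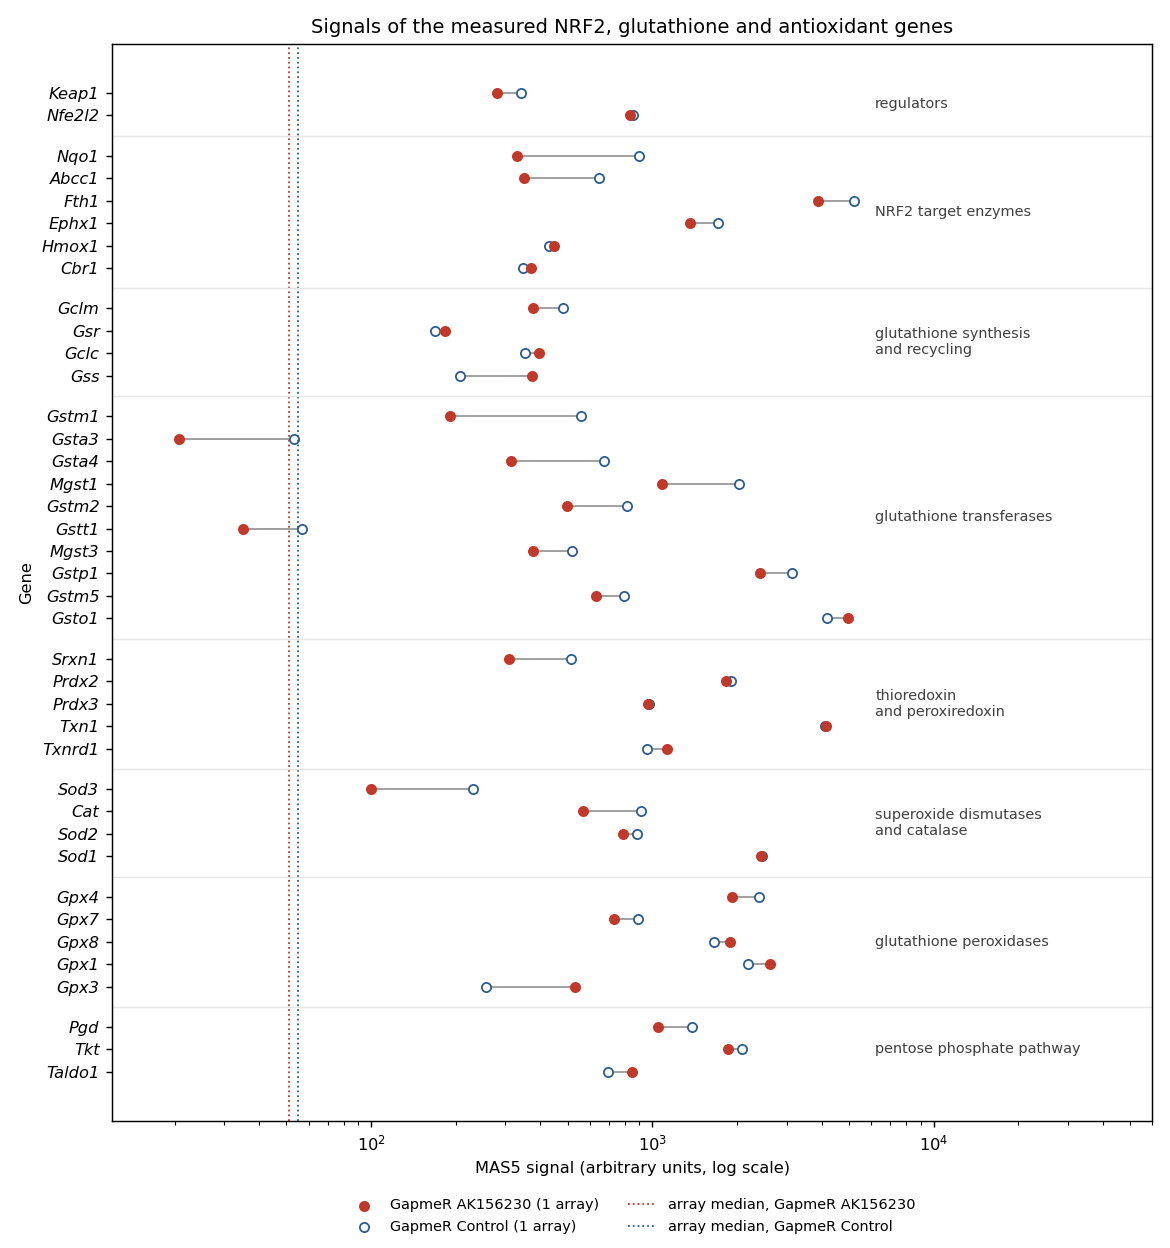
MAS5 signal on a log scale of each of the 39 measured genes, grouped by role, with a filled red point for GapmeR AK156230 and an open blue one for GapmeR Control (1 array each). In Nqo1, Gstm1, Gsta3, Gsta4 and Sod3 the filled point lies farthest left of the open one, in Gpx3 farthest right, and only Gsta3 and Gstt1 come down to the array medians of 50.95 and 54.8 (dotted).

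The regulators differed little between the arrays. Nfe2l2 (chromosome 2, from 75675513 to 75704663) had a signal of 830.1 with GapmeR AK156230 and 855 with GapmeR Control, a log2 ratio of -0.04. A second, dim probe set had 21.8 with GapmeR AK156230 and 16.3 with GapmeR Control. Keap1, on chromosome 9 from 21229730 to 21239332, had 279.6 with GapmeR AK156230 and 340.4 with GapmeR Control (log2 ratio -0.28). A dimmer probe set of Keap1 had a log2 ratio of -0.08. Both genes were within 1.5-fold, and the sign of Nfe2l2 turned with the scaling, at 0.06 when arrays were scaled to the same median.

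Of 6 genes that NRF2 is known to drive in detoxification and iron handling, Nqo1 was the only one lower by 2-fold or more. Nqo1 encodes the quinone reductase that is often used to read out NRF2 activity, and it lies on chromosome 8 from 107388225 to 107403205. Its only probe set had 331 with GapmeR AK156230 and 895 with GapmeR Control, which was 2.71-fold lower (log2 ratio -1.44). The value stayed between -1.44 and -1.33 under the alternative scalings and was -1.37 with an offset of 24.3 added to every signal. Since Nqo1 had the largest decrease outside the glutathione transferases, the 250 bases before its start are shown (GRCm38.p6, chr8:107403206-107403455, - strand), which held no TGACNNNGC in either direction. Bases farther upstream of Nqo1 were not searched.
Nqo1: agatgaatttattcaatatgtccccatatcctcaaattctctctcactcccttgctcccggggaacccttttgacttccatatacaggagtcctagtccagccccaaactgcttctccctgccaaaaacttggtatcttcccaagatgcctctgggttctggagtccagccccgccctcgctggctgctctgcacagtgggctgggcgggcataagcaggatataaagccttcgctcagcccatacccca
Abcc1, an export pump for glutathione conjugates, was 1.84-fold lower, with 351 with GapmeR AK156230 and 644 with GapmeR Control, and its dimmer probe set had a log2 ratio of -0.68. At 113.4 kb (chromosome 16, from 14361453 to 14474878) Abcc1 was the longest of the 39 genes. Hmox1, the haem oxygenase that is usually among the most inducible targets of NRF2, lies on chromosome 8 from 75093618 to 75100593 and had 447 with GapmeR AK156230 and 428 with GapmeR Control. The signals of Hmox1 therefore differed by a log2 ratio of 0.06, in contrast to -1.44 for Nqo1. The microsomal epoxide hydrolase gene Ephx1 had 1359 with GapmeR AK156230 and 1718 with GapmeR Control, and the carbonyl reductase gene Cbr1 had 371 with GapmeR AK156230 and 346 with GapmeR Control. Fth1, the heavy chain of the iron store ferritin, was among the brightest genes of the list, with 3868 with GapmeR AK156230 and 5230.5 with GapmeR Control (log2 ratio -0.44, and -0.40 at its other probe set).

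Genes of glutathione synthesis and recycling were not lower as a group: 3 of 4 had log2 ratios above 0. Gss encodes glutathione synthetase, the second enzyme of the synthesis, and lies on chromosome 2 from 155563181 to 155592810. Its signal was 373 with GapmeR AK156230 and 208 with GapmeR Control, 1.80-fold higher. A second probe set read 299 with GapmeR AK156230 and 168 with GapmeR Control, which was 1.77-fold higher. The log2 ratios of these probe sets (0.84 and 0.83) lay close together. Gclc and Gclm encode the catalytic and the modifier subunit of glutamate-cysteine ligase, the rate-limiting enzyme, and their signs were opposite. Gclc (chromosome 9, from 77754535 to 77794489) had 396 with GapmeR AK156230 and 352 with GapmeR Control. Gclm (chromosome 3, from 122245487 to 122267215) had 378 with GapmeR AK156230 and 479.7 with GapmeR Control. Their log2 ratios were 0.17 and -0.34, both within 1.5-fold, and at their second probe sets 0.41 and -0.45. The glutathione reductase gene Gsr had a log2 ratio of 0.12 (183 with GapmeR AK156230 and 169 with GapmeR Control).

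Glutathione transferases, which couple glutathione to electrophiles, held most of the lower genes. Of 10 measured members, 9 had log2 ratios below 0, 6 were lower by 1.5-fold or more and 3 of these by 2-fold or more, and the median log2 ratio was -0.71. With the arrays scaled to the same median, by quantiles or by loess, 9 of 10 were still below 0, and the median was between -0.66 and -0.60. Over all named genes, 58.8% had log2 ratios below 0. The mu-class gene Gstm1 is found at 108012250 to 108017973 of chromosome 3. The brightest of its 4 probe sets had 190.4 with GapmeR AK156230 and 558 with GapmeR Control, 2.93-fold lower, and a second one of nearly the same brightness had 187 with GapmeR AK156230 and 559.7 with GapmeR Control, 2.99-fold lower. The remaining 2 probe sets of Gstm1 were dimmer and less changed, with log2 ratios of -0.91 and -0.36, and the mean over all 4 was -1.10. As the gene with the largest decrease, Gstm1 is shown with the 250 bases before the outermost of its 2 annotated starts (GRCm38.p6, chr3:108017974-108018223, - strand), which held no TGACNNNGC.
Gstm1: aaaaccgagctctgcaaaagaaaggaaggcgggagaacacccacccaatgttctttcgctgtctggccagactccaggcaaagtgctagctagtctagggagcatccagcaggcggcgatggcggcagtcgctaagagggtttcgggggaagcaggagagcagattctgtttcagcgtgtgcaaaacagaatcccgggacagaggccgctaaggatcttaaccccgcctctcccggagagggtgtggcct
Gstm2 and Gstm5 are neighbours of Gstm1, and the 3 genes lie between 107895854 and 108017973 on chromosome 3. Gstm2 (from 107981702 to 107986420) was 1.64-fold lower, with 495 with GapmeR AK156230 and 811 with GapmeR Control. Gstm5 was within 1.5-fold, with 631 with GapmeR AK156230 and 796 with GapmeR Control. The mu-class genes resemble each other in sequence, and the representative of Gstm1 is of a type (_x_at) whose probes can also match related transcripts. Leaving out such probe sets gave Gstm1 a log2 ratio of -1.58 at the brighter of those that remained. The dimmer one had 72.0 with GapmeR AK156230 and 92.5 with GapmeR Control, a log2 ratio of -0.36. Gsta4, the alpha-class enzyme that conjugates the lipid peroxidation product 4-hydroxynonenal, had 314 with GapmeR AK156230 and 674 with GapmeR Control (chromosome 9, from 78191966 to 78209349). It was 2.15-fold lower, and at -0.999 on the log2 scale it lay just within 2-fold when both arrays were scaled to the same median. Gsta3, another alpha-class gene (chromosome 1, from 21240565 to 21265575), was dim, with 20.8 with GapmeR AK156230 and 53.4 with GapmeR Control, both under the array medians. Its log2 ratio of -1.36 was -0.78 with the offset, so the call rests on signals near the bottom of the range. The other probe set of Gsta3 had a log2 ratio of -0.91. Gstt1 (chromosome 10, from 75783813 to 75798584) was as dim, with 35.0 with GapmeR AK156230 and 57.0 with GapmeR Control, and its log2 ratio of -0.70 was -0.45 with the offset. Mgst1, a membrane-bound transferase of the endoplasmic reticulum and mitochondria, was bright, with 1082 with GapmeR AK156230 and 2033 with GapmeR Control (chromosome 6, from 138140527 to 138156755). It was 1.88-fold lower, and a probe set near background had a similar ratio, 1.85-fold. Mgst3 and the pi-class gene Gstp1 had log2 ratios of -0.46 and -0.39. Gsto1, the omega-class gene and the brightest of the 39 on the array of GapmeR AK156230, was the exception, with 4945 with GapmeR AK156230 and 4189 with GapmeR Control (log2 ratio 0.24).

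**Figure D2:**
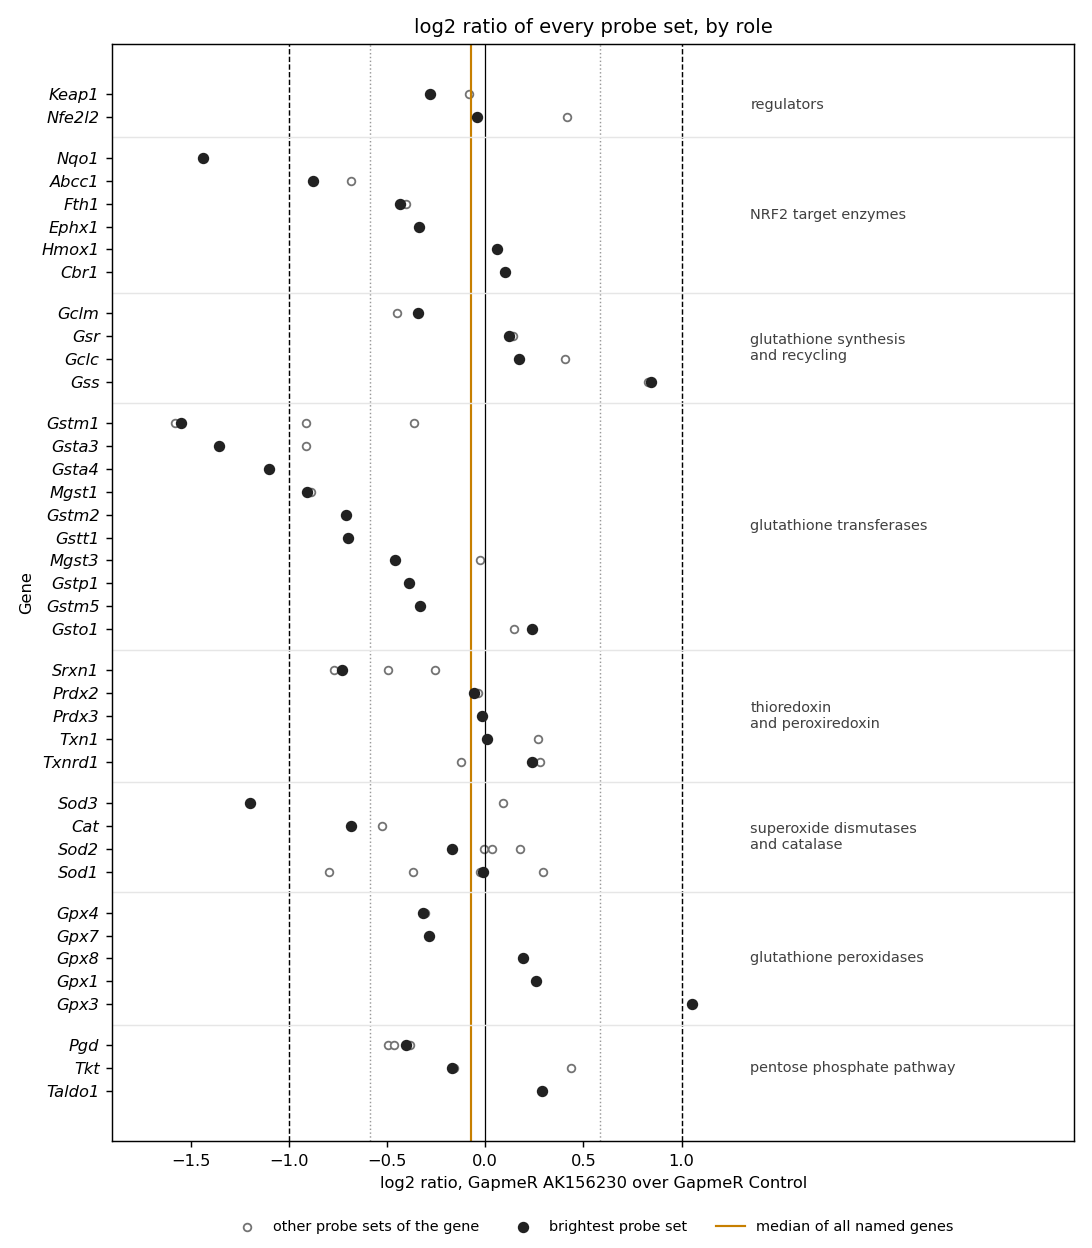
Ratios (log2, GapmeR AK156230 over GapmeR Control) of all 76 probe sets of the 39 genes, grouped by role; filled points are the probe sets a gene was read from and open points are further ones; dashed lines mark 2-fold, dotted lines 1.5-fold and the orange line the median of all named genes (-0.07). Glutathione transferases lie mostly left of 0, the probe sets of Gss coincide near 0.83, and those of Sod3 lie at -1.20 and 0.09.

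In the thioredoxin system, the sulfiredoxin gene alone was lower by 1.5-fold or more. Srxn1 encodes sulfiredoxin, which repairs over-oxidized peroxiredoxins, and lies on chromosome 2 from 152105524 to 152111376. Its signal was 309.97 with GapmeR AK156230 and 514 with GapmeR Control, 1.66-fold lower, and all 4 probe sets were below 0, with log2 ratios from -0.77 to -0.26. Txnrd1 encodes the cytosolic thioredoxin reductase, another classical target of NRF2, and lies on chromosome 10 from 82833951 to 82897724. It had 1127 with GapmeR AK156230 and 957 with GapmeR Control (log2 ratio 0.24). Dimmer probe sets of Txnrd1 had log2 ratios of 0.28 and -0.12. Its substrate gene Txn1 was nearly the same on both arrays, with 4139 with GapmeR AK156230 and 4116 with GapmeR Control. The peroxiredoxin genes Prdx2 and Prdx3, whose products remove hydrogen peroxide in the cytosol and in mitochondria, had log2 ratios of -0.06 and -0.02. These values of Txn1, Prdx2 and Prdx3 were smaller than the 0.11 by which scaling to the same median moved every log2 ratio.

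Among the enzymes that remove superoxide and hydrogen peroxide directly, Sod3 and Cat were lower and the intracellular dismutases differed little. Sod3, the secreted superoxide dismutase of the extracellular matrix, lies on chromosome 5 from 52363804 to 52369738. It had 100.1 with GapmeR AK156230 and 229 with GapmeR Control, 2.29-fold lower, but a dimmer probe set had 40.5 with GapmeR AK156230 and 38.01 with GapmeR Control. With the mean of both probe sets Sod3 had a log2 ratio of -0.55. Cat, the peroxisomal catalase gene on chromosome 2 from 103453904 to 103485153, had 566 with GapmeR AK156230 and 908 with GapmeR Control. Both probe sets of Cat were lower, by 1.60-fold and 1.44-fold. Sod1, the cytosolic enzyme, had 2434 with GapmeR AK156230 and 2454 with GapmeR Control, and the mitochondrial Sod2 had 785 with GapmeR AK156230 and 883 with GapmeR Control. Dimmer probe sets of Sod1 were spread widely, with log2 ratios from -0.80 to 0.29.

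Glutathione peroxidases such as GPX1 and GPX4 reduce hydrogen peroxide or lipid peroxides with glutathione. In this class, Gpx3 was the member with the largest increase of the 39 genes. Gpx3 encodes the secreted, plasma form of the enzyme and lies on chromosome 11 from 54902854 to 54910387. Its only probe set had 529 with GapmeR AK156230 and 255 with GapmeR Control, 2.07-fold higher (log2 ratio 1.05). With the offset its log2 ratio was 0.99, just within 2-fold. As the only gene higher by 2-fold or more, Gpx3 is shown with the 250 bases before its start (GRCm38.p6, chr11:54902604-54902853, + strand), which also held no TGACNNNGC.
Gpx3: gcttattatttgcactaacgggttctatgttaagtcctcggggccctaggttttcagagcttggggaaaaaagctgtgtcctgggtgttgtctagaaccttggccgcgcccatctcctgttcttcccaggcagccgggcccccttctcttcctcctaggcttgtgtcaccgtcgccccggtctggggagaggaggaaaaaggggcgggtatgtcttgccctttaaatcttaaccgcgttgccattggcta
Gpx1, the abundant cytosolic form, had 2624 with GapmeR AK156230 and 2196 with GapmeR Control, and Gpx8, a form of the endoplasmic reticulum, had 1889.7 with GapmeR AK156230 and 1653 with GapmeR Control. Gpx4, which reduces lipid peroxides in membranes and so protects cells from ferroptosis, had 1916 with GapmeR AK156230 and 2389 with GapmeR Control. Gpx7, also of the endoplasmic reticulum, had 729 with GapmeR AK156230 and 890.05 with GapmeR Control. Apart from Gpx3 these genes lay within 1.5-fold, with log2 ratios from -0.32 to 0.26. The secreted enzymes Sod3 and Gpx3 thus lay on opposite sides, while Sod1, Sod2, Gpx1, Gpx4, Gpx7 and Gpx8 were all within 1.5-fold.

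The pentose phosphate pathway supplies the NADPH that keeps glutathione and thioredoxin reduced, and its 3 measured genes were within 1.5-fold. Pgd, the phosphogluconate dehydrogenase gene, had 1046 with GapmeR AK156230 and 1382 with GapmeR Control, and its 4 probe sets had log2 ratios from -0.49 to -0.38. The transketolase gene Tkt had a log2 ratio of -0.17 and the transaldolase gene Taldo1 one of 0.29.

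The SD of the log2 ratio between probe sets of the same gene was 0.23, estimated from 4478 genes with at least 2 probe sets at or above the median on both arrays. Of the 13 members past 1.5-fold, 8 had several probe sets, and in 7 of these all probe sets had the same sign, with Sod3 as the exception. This spread covers the probes and not the cells, because all probe sets of a gene were read from the same hybridization. The signals of Nqo1, Gsta4, Gstm2, Gstt1 and Gpx3 came from 1 probe set each.

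**Figure D3:**
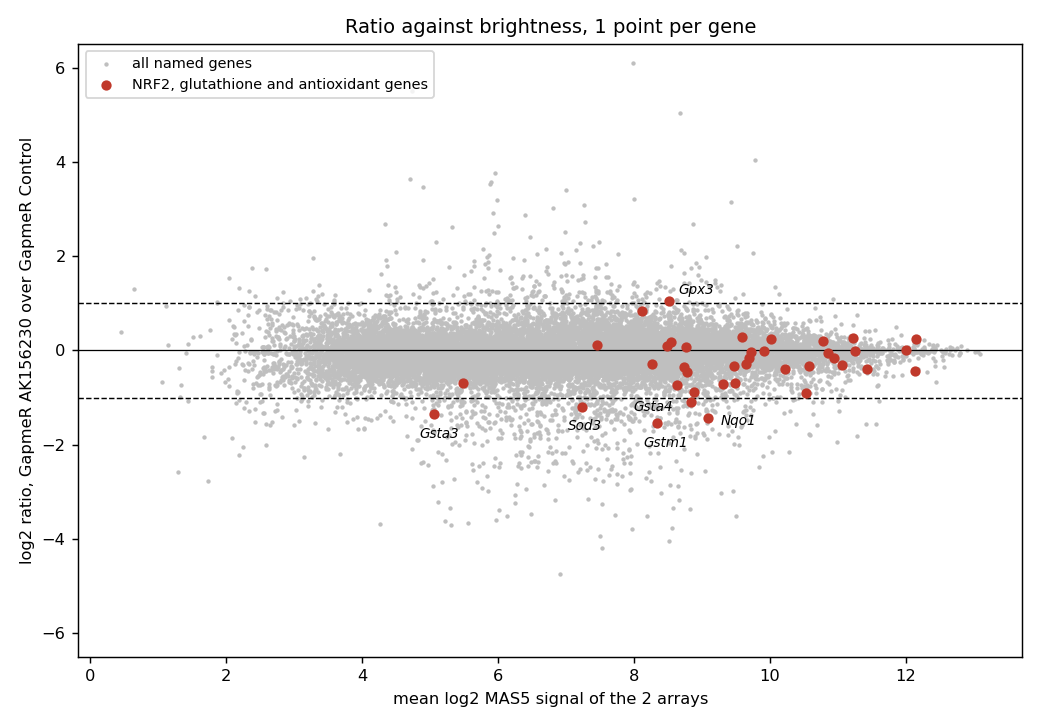
Ratio (log2, GapmeR AK156230 over GapmeR Control) plotted against the mean log2 signal of both arrays, with a grey point for each of 18193 named genes and a red point for each of the 39 genes; dashed lines mark 2-fold. Most red points lie at high signal, and the named ones are those past 2-fold, of which Gsta3 is the dimmest.

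Of 95 further genes of the pathway listed from textbook knowledge, 88 were measured. By 2-fold or more, 2 were higher (2.27%) and 7 lower (7.95%), beside 1.59% and 3.85% of all named genes. The median log2 ratio of these 88 genes was -0.07, beside -0.07 for all named genes. Among regulators, the genes of the small MAF proteins, the partners of NRF2, all had log2 ratios above 0. Maff had 379 with GapmeR AK156230 and 197 with GapmeR Control (log2 ratio 0.94), and Mafk and Mafg had log2 ratios of 0.66 and 0.42. The genes of the repressors that compete for the same element were below 0: Bach1 had a log2 ratio of -0.62, and Bach2, a dim gene of 347.7 kb, one of -1.28 (31.6 with GapmeR AK156230 and 77.04 with GapmeR Control). The other 2 probe sets of Bach2 had log2 ratios of -0.54 and -0.16, and the mean of all 3 was -0.66, within 2-fold. Bach2, Abcc4 and Xdh reached the median signal with GapmeR Control only. Sqstm1, whose product p62 binds KEAP1, had 1896 with GapmeR AK156230 and 1910.5 with GapmeR Control.

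Of 11 further transferases measured, 6 had log2 ratios below 0 and 5 above 0, and none was lower by 1.5-fold at its brightest probe set. The difference from the transferases in the member list was not tested. Further alpha- and mu-class genes had log2 ratios of -0.47 (Gsta2), -0.40 (Gstm3), -0.39 (Gstm6), -0.06 (Gstm4) and 0.04 (Gstm7). The other probe set of Gstm7 had a log2 ratio of -0.68, lower by more than 1.5-fold. The theta- and omega-class genes Gstt2 and Gsto2 were higher by 2-fold or more. Gstt2 had 118 with GapmeR AK156230 and 47.4 with GapmeR Control, and it reached the median signal with GapmeR AK156230 only. Gsto2 had 198 with GapmeR AK156230 and 96.4 with GapmeR Control. With the offset both were within 2-fold (0.99 and 0.88). In glutathione turnover, Chac1, which encodes a glutathione-degrading enzyme, was 2.88-fold lower, with 228 with GapmeR AK156230 and 659 with GapmeR Control. The cystine transporter gene Slc7a11 had a log2 ratio of -0.16 at 52.8 with GapmeR AK156230 and 58.9 with GapmeR Control.

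The largest decrease among the further genes was in iron handling. Slc40a1, which encodes ferroportin, the iron exporter, was 6.23-fold lower, with 79.2 with GapmeR AK156230 and 494 with GapmeR Control, and its other probe set had a log2 ratio of -0.89. The mean of both was -1.77. H6pd, the glucose-6-phosphate dehydrogenase gene of the endoplasmic reticulum, was 2.69-fold lower (157 with GapmeR AK156230 and 423 with GapmeR Control), and the export pump gene Abcc4, of 225.2 kb, was 3.22-fold lower (44.8 with GapmeR AK156230 and 144 with GapmeR Control). Idh1 and Idh2, other sources of NADPH, had log2 ratios of -0.83 and -0.86, and at their second probe sets -0.80 and -0.03. Among genes of oxidant production, Xdh, which encodes xanthine dehydrogenase, was 2.18-fold lower (48.0 with GapmeR AK156230 and 104.9 with GapmeR Control), and the NADPH oxidase gene Nox4 had a log2 ratio of 0.78. With the offset the log2 ratios of Bach2 and Xdh were -0.86 and -0.84. Aox1, also lower by 2-fold or more, was under both array medians, with 14.55 with GapmeR AK156230 and 54.55 with GapmeR Control. Its log2 ratio was -1.91, and -1.02 with the offset.

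**Figure D4:**
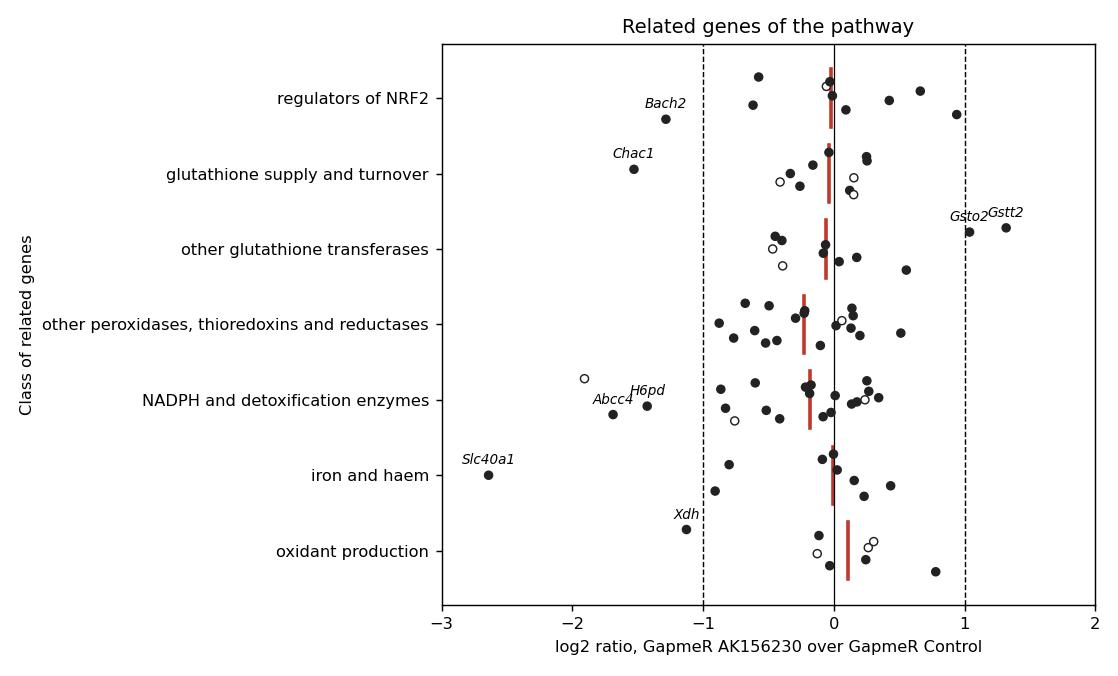
Ratios (log2, GapmeR AK156230 over GapmeR Control) of the 88 further genes by class. Points are filled at or above the median of the brighter array and open below it. A red bar marks the median of each class, and dashed lines mark 2-fold. Slc40a1 lies farthest left at -2.64 and Gstt2 farthest right at 1.32.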

How the data were processed

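RNA of MEFs transfected with GapmeR AK156230 or GapmeR Control had been hybridized to 1 Affymetrix array each. The deposited intensity values are MAS5 signals, which the authors scaled per array; for the MAS5 version and the target of that scaling the sources used here give nothing, and the table held no detection calls. The methods name a porcine array, whereas the labels give mouse RNA and the platform annotation is of mouse. Probe sets with 1 gene symbol (34945 of 45037) were named, through the Entrez ID in 34741, and a gene was read from its brightest probe set. Log2 ratios were taken without offset. The methods' test for groups of arrays (SAM) cannot be run on 1 array per condition, so no p-value is given, and the number of arrays limits the precision. Positions and promoters are of RefSeq, GRCm38.p6.

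The members and gene lists were chosen with earlier results of these data known. All members may be named; those past 1.5-fold and 8 regulators and classical targets (Nfe2l2, Keap1, Nqo1, Hmox1, Gclc, Gclm, Txnrd1 and Srxn1) were given in full, and further genes were named if past 2-fold and no dimmer than the median of the brighter array, plus up to 3 per class for contrast. The alternatives were median scaling, quantile and loess normalization (fraction 0.3), an offset added to all signals (24.3, their 25th percentile), the median as a signal minimum, a threshold of 1.5-fold or 3-fold, averaging all probe sets per gene, and dropping those of the _x_at and _s_at types. The counts limited to genes shorter than 40 kb were chosen after seeing the data. The counting was first tested on simulated data. Python 3.11.15, numpy 2.4.6, pandas 2.3.3, statsmodels 0.14.6 and matplotlib 3.10.9 were used.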

Additional observations from a re-analysis of the deposited data

How the results depend on the processing

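Each condition had 1 array, so no error between cultures is known, and no paired analysis was possible because no group had more than 1 sample. The count of members past 2-fold was between 4 and 6 under the alternative scalings, the offset, the signal minimum and the choices of probe set, and was 13 at 1.5-fold and 0 at 3-fold; the median of the members stayed between -0.29 and -0.18. Among the 6 members past 2-fold, Nqo1 and Gstm1 stayed past it under each of the scaling, offset and probe set alternatives, whereas Gsta4 with equal medians (-0.999), Gsta3 (-0.78) and Gpx3 (0.99) with the offset, and Sod3 with the mean of its probe sets (-0.55) did not. The further genes past 2-fold numbered 9, and 5 with the offset, 23 at 1.5-fold and 3 at 3-fold. All named genes past 2-fold numbered 989, and 633 with the offset, 2759 at 1.5-fold, 344 at 3-fold, 479 when limited to genes under 40 kb and 382 when these also had to reach the median signal (limits chosen after seeing the data). Of 288 further values for single genes under an alternative, 276 moved by less than the SD between probe sets (0.23) and 12 by more. No gene past 2-fold turned its sign. Part of this was fixed in advance. Scaling to the same median moved every value by the same 0.11, which is under 0.23, and a positive offset cannot turn a sign. Averaging probe sets cannot change a gene that has only 1.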
